A study of Mus musculus with 96 samples.

Results

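The cells described here are preoptic neurons that carried the messenger RNA of Trh, the gene for thyrotropin-releasing hormone (TRH). They were chosen by the measured Trh level: a cell was called Trh-expressing when Trh reached 10 CPM (a gene's count divided by the cell's total count and multiplied by 1000000). This held for 19 of the 96 cells of the series, and the other 77 cells lay below that limit. The series looked for genetic markers of neurons that respond to temperature in the preoptic area, the part of the mouse hypothalamus that regulates body temperature. Every cell, in both groups, came from C57BL/6N mice aged 2-3 months, was recorded by whole-cell patch clamp, was then picked with a glass pipette, and was sequenced by the Smart-seq2 and Nextera XT protocols. The labels give a temperature class to 78 cells, namely 10 silent sensitive, 18 silent insensitive, 21 warm-sensitive, 5 cold-sensitive and 24 insensitive cells, and they give the class as unknown for the remaining 18. The labels do not say what made a cell silent, and they name no animal, slice or day, so each group of cells counts as 1 sample. No test was made for that reason, no p-value is given, and a difference is called by its size alone.

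TRH is made as a larger precursor with several copies of the peptide sequence. Prohormone convertases cut the precursor, carboxypeptidase E trims the fragments, and glutaminyl cyclase and the amidating enzyme Pam finish the ends of the peptide. Neurons of the paraventricular nucleus send TRH to the pituitary to drive thyroid hormone output, while neurons in other hypothalamic areas, the preoptic area among them, use it as a neuromodulator, and TRH given into the preoptic area is known to raise body temperature in rodents.

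Trh lies on mouse chromosome 6 at chr6:92242061-92244650 on the minus strand (GENCODE M21, mm10), as a protein-coding gene. Its promoter is shown because Trh itself set the groups and because the genes known to control it are described further on. The RefSeq window runs from 250 bases before to 50 bases after the start, at chr6:92244601-92244900 on the minus strand (GRCm38.p6). Capitals mark the 2 motifs searched, TGACCTCA and TATAA.
Trh promoter: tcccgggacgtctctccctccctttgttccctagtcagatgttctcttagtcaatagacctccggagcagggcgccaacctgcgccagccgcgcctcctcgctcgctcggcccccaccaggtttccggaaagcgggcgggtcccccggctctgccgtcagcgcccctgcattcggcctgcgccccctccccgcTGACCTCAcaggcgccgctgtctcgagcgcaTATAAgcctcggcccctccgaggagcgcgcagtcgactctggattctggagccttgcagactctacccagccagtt
TGACCTCA is the sequence described in the TRH promoter as bound by thyroid hormone receptors and by the cyclic AMP factor CREB. It began 57 bases before the start (position -57) and occurred 1 time on the gene's strand and 0 times on the other. Of 32851 mouse promoter windows of this length, 712 (2.17%) held it on either strand. TATAA, the core of a TATA box, began at position -26, and 24.9% of the windows held it on either strand. The motifs did not overlap. A match describes the letters of this window and nothing about binding in these cells.

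Trh chose the groups, so its values are given as a description. Among the Trh-expressing cells Trh had a lowest value of 14.9 CPM, a median of 154 CPM and a highest value of 1117 CPM, from 28 to 3561 counts, against at most 1.82 CPM and 3 counts in the other cells. No cell lay between 1.82 and 14.9 CPM: the lowest Trh-expressing cell, insensitive cell 18, was 8.21-fold above the highest other cell, unknown cell 2. The next cell below that one was insensitive cell 9, at 1.73 CPM, and the next above insensitive cell 18 was silent sensitive cell 7, at 19 CPM. Of the other cells, 54 had no Trh count and 23 had 1 to 3 counts. Within the Trh-expressing cells the level spanned 74.8-fold: 5 cells were over 500 CPM, 6 were between 100 and 500 CPM, and 8 were under 100 CPM. The 5 highest cells were silent insensitive cells 11 and 1 (1117 and 1115 CPM), warm-sensitive cell 6 (1030 CPM), unknown cell 1 (973 CPM) and insensitive cell 17 (570 CPM). They held 84.8% of all Trh counts of the series, with 3561 counts in unknown cell 1 alone. The Trh-expressing cells held 9288 Trh counts in all, and the other cells held 30.

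**Figure D1:**
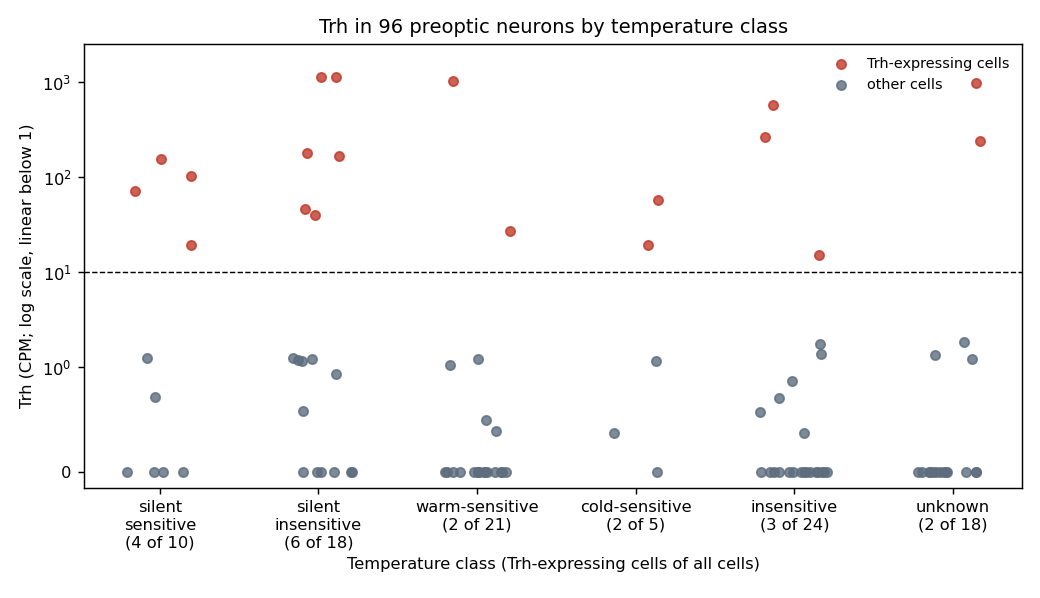
Trh in CPM (log scale, linear below 1) in each of the 96 cells by temperature class, with Trh-expressing cells in red, other cells in grey and the 10 CPM limit as a dashed line. The 19 Trh-expressing cells lie between 14.9 and 1117 CPM and the 77 other cells at or below 1.82 CPM, and Trh-expressing cells occur in every class.

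Trh-expressing cells were found in every temperature class. Among the silent cells of both classes they made up 10 of 28 (35.7%, exact Clopper-Pearson 95% interval 18.6 to 55.9%), against 7 of the 50 classified cells that were not silent (14%, 5.82 to 26.7%). Seen the other way, 52.6% of the Trh-expressing cells were labelled silent (28.9 to 75.6%), against 23.4% of the other cells (14.5 to 34.4%). The intervals of each pair overlap. All intervals here treat cells as independent draws and cover counting error only, without any variation between animals.

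By sensitivity to temperature the shares were close. Trh-expressing cells were 8 of 36 cells labelled sensitive to warmth, to cold or as silent sensitive (22.2%, 10.1 to 39.2%), and 9 of 42 cells labelled insensitive or silent insensitive (21.4%, 10.3 to 36.8%). By single class they were 4 of 10 silent sensitive cells (40%, 12.2 to 73.8%), 6 of 18 silent insensitive cells (33.3%, 13.3 to 59.0%), 2 of 21 warm-sensitive cells (9.52%, 1.17 to 30.4%), 2 of 5 cold-sensitive cells (40%, 5.27 to 85.3%) and 3 of 24 insensitive cells (12.5%, 2.66 to 32.4%). A further 2 of the 18 cells of unknown class carried Trh (11.1%, 1.38 to 34.7%). With classes of this size, a difference between single classes was not detectable.

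The level of Trh also varied widely inside a class. In silent insensitive cells that carried it, Trh was 1117, 1115, 176, 165, 45.3 and 39.7 CPM. The silent sensitive cells had 154, 101, 69.8 and 19 CPM. The warm-sensitive cells had 1030 and 26.8 CPM, the cold-sensitive cells 56.9 and 19.2 CPM, and the insensitive cells 570, 262 and 14.9 CPM. The 2 cells of unknown class had 973 and 238 CPM. Cells over and under 100 CPM occurred together in every class but the cold-sensitive one, whose 2 cells were both under 100 CPM, and the unknown one, whose 2 cells were both over it.

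The groups had similar depth. The median total count was 1223256 in Trh-expressing cells and 1311644 in other cells, and over the series totals ran from 465167 to 3660726. Rn45s, the precursor of ribosomal RNA, took a median of 53.8% of counts in Trh-expressing and 56.8% in other cells, with a range from 21.8 to 91.6% over all cells. Outside Rn45s the median count was 462116 in Trh-expressing and 591348 in other cells, yet the median cell had a count for 4177 genes among Trh-expressing and 3525 genes among other cells. With every cell thinned to 100000 counts outside Rn45s, which left out 0 Trh-expressing cells and 1 other cell, the median was 3159 genes in Trh-expressing and 2527.5 genes in other cells. Neuronal markers were present in both groups: Snap25, a protein of the vesicle fusion machinery, reached 10 CPM in 19 of 19 Trh-expressing cells and 73 of 77 other cells. The letter in a cell's title, whose meaning the labels do not give, was treated as a possible batch, and the number of Trh-expressing cells ran from 0 of 12 under the letter F to 4 of 12 under C and E.

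Levels of all other genes were compared as log2(CPM + 1) averaged over cells, which understates the change of low genes, and as the share of cells at 10 CPM or more. A gene was eligible when 25% or more of the cells of either group, and no fewer than 3, reached 10 CPM, which left 3952 genes. A gene could thus become eligible only through the group where it was high. Counts of list members above the median gene are therefore descriptions. The median eligible gene was 0.37 higher on the log2 scale in Trh-expressing cells, with 2643 genes above 0 and 1309 below. Differences called "relative" below are therefore counted from this median gene, and a gene was called when its relative difference was 2 or more in size. By that rule 15 genes were called higher in Trh-expressing cells (0.38%) and 20 lower (0.506%), 35 in all (0.886%). Without counting from the median gene the split was 52 higher and 1 lower. The middle of the distribution was narrow beside these calls, with quartiles of -0.56 and 0.46 and with 90% of the genes between -1.34 and 1.14.

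The 12 genes named on the higher side stood between 2.42 and 3.55 above the other cells on the log2 scale, and by the naming rule every one also had the larger share of cells and the same sign in silent and in not silent cells. The cell counts behind them are in the plot of shares for the named genes. The largest difference was that of Dlk1. By what they are known to do the 12 genes fall into complement (C1qb and C1qc), membrane and cytoskeleton (Dlk1, Ctnnb1, Msn and Arhgdib), protein turnover and traffic (Psme1, Clpp and Vps52), and sugar handling, sialylation and calcium binding (Slc50a1, St3gal6 and Pdcd6).

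**Figure D2:**
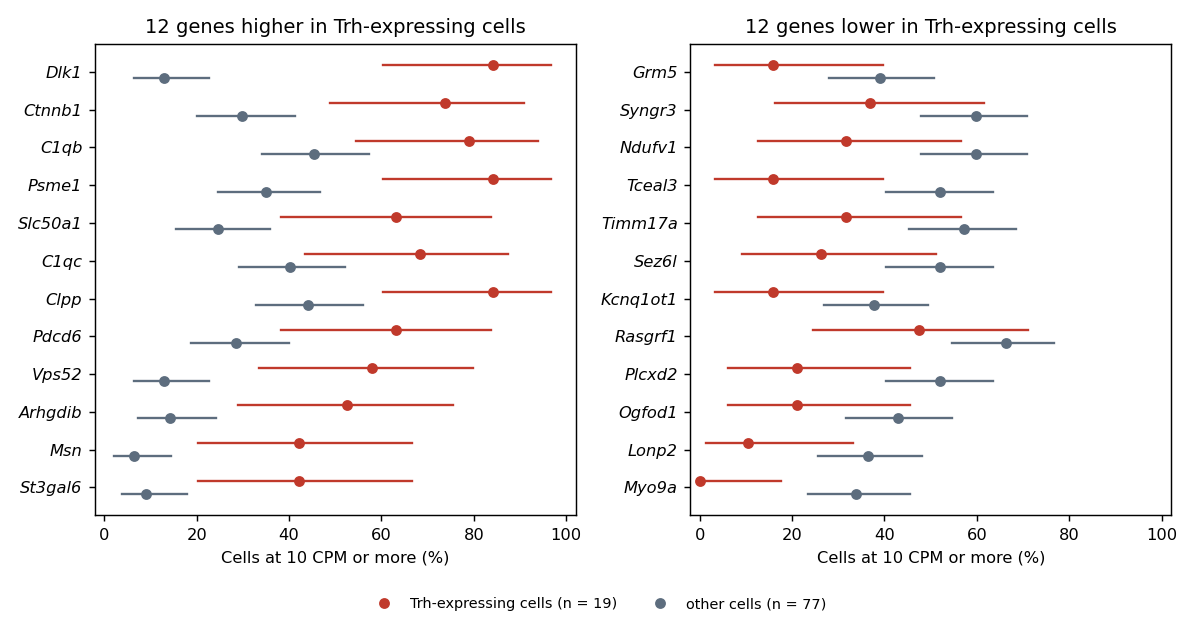
Percent of cells at 10 CPM or more for the 12 genes named higher and the 12 named lower, in Trh-expressing cells (red, n = 19) and other cells (grey, n = 77), with exact 95% intervals. Dlk1 shows the widest gap, 84.2% of Trh-expressing against 13% of other cells, and Myo9a was at that level in 0 Trh-expressing cells.

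Dlk1 encodes a membrane protein related to the Notch ligands and is an imprinted gene expressed from the paternal copy (chr12:109452823-109463336, plus strand, mm10). It reached 10 CPM in 16 of 19 Trh-expressing cells (84.2%, 60.4 to 96.6%) and in 10 of 77 other cells (13%, 6.41 to 22.6%). Its lowest, median and highest values were 0, 21.6 and 932 CPM in Trh-expressing cells, against 0, 0 and 164 CPM in other cells. The relative difference was 3.18, and 61.5% of all cells with Dlk1 were Trh-expressing. The groups overlap, because insensitive cell 17, silent sensitive cell 6 and silent insensitive cell 6 had Trh and at most 0.6 CPM of Dlk1. The intervals of the shares do not overlap. Dlk1 was eligible through the Trh-expressing cells alone and had the largest difference of the 3952 eligible genes, so this gap is a description.

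Dlk1 was found with Trh in all kinds of cell. It was present in 8 of 10 silent Trh-expressing cells against 2 of 18 other silent cells, and in 6 of 7 Trh-expressing cells that were classified and not silent, against 6 of 43 other such cells. By temperature it was present in 7 of 8 sensitive Trh-expressing cells, against 3 of 28 other sensitive cells, and in 7 of 9 insensitive Trh-expressing cells, against 5 of 33 other insensitive cells. Its share was close at high and low Trh: 9 of 11 cells with 100 CPM or more of Trh carried it, and 7 of 8 cells below that. Within title letters the relative difference of Dlk1 was 3.43. Of 24 other settings, Dlk1 stayed at 2 or more in all but 2, the Trh limit of 1 CPM (1.88) and a pseudocount of 10 CPM (1.56).

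Ctnnb1, which encodes beta-catenin, a protein of cell junctions and of Wnt signalling, was at 0, 106 and 1089 CPM in Trh-expressing cells (lowest, median and highest), against 0, 1.15 and 1128 CPM in other cells. It reached 10 CPM in 14 of 19 Trh-expressing and 23 of 77 other cells, with a relative difference of 2.91. Both groups cover nearly the same range, and more of the Trh-expressing cells were high. Psme1, a subunit of an interferon-inducible activator of the proteasome, was present in 16 of 19 Trh-expressing and 27 of 77 other cells, with medians of 76.0 and 0.97 CPM. Clpp, a protease of the mitochondrial matrix, was present in 16 Trh-expressing and 34 other cells, with medians of 154 and 2.25 CPM. Among silent cells alone the relative difference of Clpp was 0.68, and that of Psme1 was 1.43.

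Vps52, a subunit of a tethering complex for traffic back to the Golgi, was at 10 CPM in 11 of 19 Trh-expressing and 10 of 77 other cells. Slc50a1, a sugar transporter, was present in 12 Trh-expressing and 19 other cells, and Pdcd6, a calcium-binding protein, in 12 and 22. Pdcd6 had a relative difference of 2.17 over all cells and of 0.50 among cells that were classified and not silent. Msn, which encodes moesin, a link between actin and the membrane, was present in 8 of 19 Trh-expressing and 5 of 77 other cells, at 2.10 over all cells and 0.80 among cells that were classified and not silent. St3gal6, a sialyltransferase, was present in 8 and 7, and Arhgdib, a gene known mainly from blood cells, in 10 and 11.

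Part of this set belongs to microglia, the immune cells of the brain. C1qb and C1qc, chains of complement C1q, are made in brain mainly by microglia. C1qb had a lowest, median and highest value of 1.09, 574 and 5263 CPM in Trh-expressing cells, against 0, 4.91 and 3906 CPM in other cells, and it reached 10 CPM in 15 of 19 Trh-expressing and 35 of 77 other cells. C1qc was present in 13 Trh-expressing and 31 other cells. All 11 eligible genes of a list of 12 microglial markers lay above the median gene, with a median relative difference of 1.43, and 2 of them were called (C1qb and C1qc, against 0.38% of all genes). The median of the list was 0.69 in silent and 2.72 in not silent cells, 0.59 at a Trh limit of 50 CPM and 0.82 for cells with 100 CPM or more of Trh. At the limit of 50 CPM, C1qc was at 0.71 and Arhgdib at 0.09. Summed over the list the level was 7.92, 1753 and 26781 CPM in Trh-expressing cells, against 2.00, 580 and 17525 CPM in other cells. The median cell had 8 of the 12 markers at 10 CPM among Trh-expressing cells and 3 among other cells. The twelfth gene, Tmem119, which among brain cells is specific to microglia, was present in 1 Trh-expressing and 6 other cells. Microglial markers were thus present in cells of both groups and in more of the Trh-expressing ones, and their part in the other differences was not tested.

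The named genes were set against C1qb directly, in a split chosen after the data had been seen. The 4 Trh-expressing cells with C1qb under 10 CPM were unknown cell 1, insensitive cell 4 and silent sensitive cells 2 and 3. Dlk1 reached 10 CPM in 4 of these 4 and in 12 of the 15 Trh-expressing cells with C1qb. Among other cells it did so in 4 of 42 without and 6 of 35 with C1qb. Ctnnb1 was likewise present in 4 of 4 Trh-expressing cells without C1qb and 10 of 15 with it, against 12 of 42 and 11 of 35 other cells. The relative difference among cells without C1qb was 5.62 for Dlk1 and 5.86 for Ctnnb1, and among cells with C1qb it was 2.62 and 2.27. Large differences were common without C1qb, where only 4 cells were Trh-expressing. There 340 genes were called higher and 254 lower, of 2769 eligible genes, against 30 and 49 of 4424 with C1qb. The sizes of the 2 splits are therefore not compared.

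Other named genes went with C1qb. Arhgdib was present in 10 of 15 Trh-expressing cells with C1qb and in 0 of 4 without it, against 9 of 35 and 2 of 42 other cells. St3gal6 was present in 8 of 15 and 0 of 4 Trh-expressing cells, against 6 of 35 and 1 of 42 other cells, and C1qc in 13 and 0, against 24 and 7. Among cells without C1qb the relative difference was -0.74 for Arhgdib, -0.46 for St3gal6 and -0.63 for C1qc. With 0 of 4 Trh-expressing cells at 10 CPM for each gene, these values lie at the floor and give no direction. Psme1 was in 14 of 15 and 2 of 4 Trh-expressing cells, against 18 of 35 and 9 of 42 other cells. Msn was in 7 of 15 and 1 of 4, against 4 of 35 and 1 of 42. Without C1qb their relative differences were 1.96 and 1.64. Clpp went the other way, in 12 of 15 and 4 of 4, against 14 of 35 and 20 of 42. Slc50a1, Pdcd6 and Vps52 were in 10, 10 and 9 of 15 and each in 2 of 4. In other cells they were in 9, 10 and 4 of 35 and 10, 12 and 6 of 42. C1qc and C1qb are both chains of C1q, so a split on C1qb also bears on C1qc. The counts of these cells are small, and every Trh-expressing cell had at least 1 of Dlk1 and C1qb at 10 CPM.

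**Figure D3:**
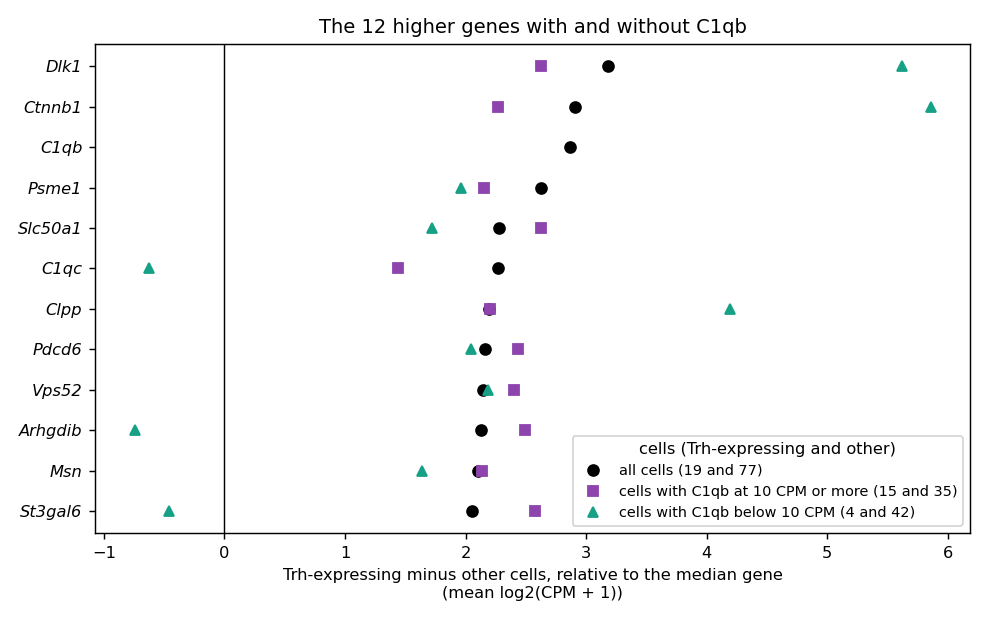
Difference between Trh-expressing and other cells in mean log2(CPM + 1), relative to the median gene, for the 12 genes named higher, over all cells (black circles), cells with C1qb at 10 CPM or more (purple squares) and cells with C1qb below 10 CPM (green triangles). Dlk1 and Ctnnb1 stand furthest to the right without C1qb, at 5.62 and 5.86. Only 4 Trh-expressing cells stand behind those values, and 340 of 2769 eligible genes were called higher there. Arhgdib, St3gal6 and C1qc fall below 0 there, with 0 of 4 Trh-expressing cells at 10 CPM. C1qb defined the split, so only its difference over all cells is drawn.

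Markers of other cell types were also counted. Of 12 oligodendrocyte markers 5 were eligible, with a median of 0.01 relative to the median gene, and 3 or more markers were present in 11 of 19 Trh-expressing cells (57.9%) and 39 of 77 other cells (50.6%). Mog and Opalin had no count in any Trh-expressing cell. Trf, which encodes transferrin and is counted in that list, was present in 9 of 19 Trh-expressing and 19 of 77 other cells, at a relative difference of 1.77. Of 11 astrocyte markers 7 were eligible, at a median of -0.66, and 3 or more markers of the list reached 10 CPM in 12 of 19 Trh-expressing cells (63.2%) and 44 of 77 other cells (57.1%). Among its defining markers Gfap was present in 1 and 4 cells, Aqp4 in 1 and 5, Gja1 in 1 and 11, and Slc1a3 in 4 and 22. Endothelial and mural markers were nearly absent: Cldn5, Pecam1 and Flt1 had no count in the Trh-expressing cells. Of the ependymal markers, Foxj1 had none there either, and no gene of the endothelial, ependymal or oligodendrocyte precursor lists was eligible. The pan-neuronal list had 19 eligible genes of 20 and a median of -0.16, with 6 above the median gene.

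On the lower side the 12 named genes differed by -2.08 to -1.76 on the log2 scale before counting from the median gene. Grm5, a metabotropic glutamate receptor, was present in 3 of 19 Trh-expressing cells (15.8%, 3.38 to 39.6%) and 30 of 77 other cells (39.0%, 28.0 to 50.8%). Its median and highest values were 0 and 66.4 CPM in Trh-expressing cells, against 2.44 and 1686 CPM in other cells. Its relative difference was -2.44, the largest in size on this side, and among cells that were classified and not silent it was -0.69. Syngr3, a protein of synaptic vesicles, was present in 7 Trh-expressing and 46 other cells, with medians of 3.09 and 130 CPM. Rasgrf1, an activator of Ras and like Dlk1 an imprinted gene expressed from the paternal copy in mouse brain, was present in 9 Trh-expressing and 51 other cells.

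Several of these genes belong to mitochondria and other organelles. Ndufv1, a subunit of respiratory complex I, was present in 6 of 19 Trh-expressing and 46 of 77 other cells, with medians of 1.91 and 96.1 CPM. Its relative difference was -2.33 over all cells, -3.98 among silent cells and -0.72 among cells that were classified and not silent. Timm17a, part of the import channel of the inner mitochondrial membrane, was present in 6 and 44, and Lonp2, a protease of peroxisomes, in 2 and 28. In its pathway Ndufv1 was the only gene called. Of 25 nuclear genes of oxidative phosphorylation, all eligible, 14 lay above the median gene, their median was 0.06 and 1 was called lower (against 0.506% of all genes). Sdhb and Uqcrc1 of the same list, subunits of complexes II and III, had relative differences of 1.41 each.

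Myo9a, an unconventional myosin, reached 10 CPM in 0 of 19 Trh-expressing cells, which allows a share of up to 15.8% by 3 counts, and in 26 of 77 other cells (33.8%, 23.4 to 45.5%). Its highest value was 4.66 CPM in Trh-expressing cells, against 946 CPM in other cells. Kcnq1ot1, a noncoding RNA antisense to Kcnq1, was present in 3 Trh-expressing and 29 other cells. Whether counting used the strand is not stated in these sources, so reads of Kcnq1ot1 cannot be told apart from those of the gene it overlaps. Tceal3 was present in 3 and 40 cells, Plcxd2 in 4 and 40, Ogfod1 in 4 and 33, and Sez6l in 5 and 40. Tceal3 and Sez6l were close to the median gene among the cells without C1qb, at -0.11 and -0.44, and Sez6l was at -0.83 among silent cells.

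The genes that process and secrete the TRH peptide lay on balance below the median gene over all cells. They lay above it among cells with C1qb below 10 CPM, of which only 4 were Trh-expressing. Of 17 genes of peptide processing and secretion 13 were eligible, 2 of these lay above the median gene, and their median was -0.47, with none called. Among the cells without C1qb the median of the list was 0.55 over its eligible genes, with Pam at 2.15 and Pcsk1n at 0.55. Pcsk1, at 2.47, was not eligible there. It reached 10 CPM in 2 of those 4 Trh-expressing cells and in 5 of 42 other cells. Among cells with C1qb (15 Trh-expressing and 35 other) the median of the list was -0.56. Over all cells Cpe, the carboxypeptidase, was present in 18 of 19 Trh-expressing and 68 of 77 other cells, with medians of 311 and 619 CPM and a relative difference of -0.95. Pcsk1n, an inhibitor of the convertase, was present in 19 and 76 cells, at -0.97. Pam was present in 11 and 41 cells with medians of 60.1 and 22.2 CPM, and its relative difference was -0.47, but 0.53 among silent cells and -1.63 among cells that were not silent. Of the convertases, Pcsk2 was present in 6 and 25 cells and Pcsk1 in 3 and 6. The glutaminyl cyclase gene Qpct was present in 5 and 18 cells. Chga, which encodes chromogranin A of secretory granules, lay lowest of the list at -1.79, with 8 and 44 cells.

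At the receiving end, Trhr, the receptor for TRH, was at 10 CPM in 4 of 19 Trh-expressing cells (21.1%, 6.05 to 45.6%) and 6 of 77 other cells (7.79%, 2.91 to 16.2%). Trhde, the enzyme that degrades TRH outside the cell, was present in 0 Trh-expressing and 4 other cells. None of the 4 genes of receptors and degradation was eligible.

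Among the factors known to control the Trh gene, 6 of 19 were eligible, 5 of these lay above the median gene, and the median was 0.28, with none called. Pou3f2, a transcription factor needed with Sim1 for neurons of the paraventricular nucleus, was present in 6 of 19 Trh-expressing cells (31.6%, 12.6 to 56.6%) and 6 of 77 other cells (7.79%, 2.91 to 16.2%). Its relative difference was 1.06, but -0.48 on summed counts. In its 6 Trh-expressing cells it ran from 19.1 to 58.6 CPM, against up to 688 CPM in its 6 other cells. Sim1, which was too rare to be eligible, was present in 4 Trh-expressing cells and 1 other cell. These were insensitive cell 17, unknown cell 1, insensitive cell 18 and silent insensitive cell 7, at 66.9, 63.9, 34.1 and 28.1 CPM of Sim1, against 17.3 CPM in the 1 other cell. None of the 4 was labelled temperature-sensitive. Among silent cells its relative difference was -0.26, with 1 of 10 Trh-expressing and 0 of 18 other cells. Otp was present in 1 Trh-expressing and 0 other cells, and Crem in 5 and 7. Pou3f2 and Crem were eligible through the Trh-expressing cells alone, so the count above the median gene depends in part on that filter.

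Thyroid hormone receptors and CREB are the factors described at the TGACCTCA sequence shown above. Thra, one such receptor, was present in 8 Trh-expressing and 23 other cells at a relative difference of 0.36. Thrb, the other such receptor and the one known to mediate repression of Trh by thyroid hormone, reached 10 CPM in 0 of 19 Trh-expressing and 11 of 77 other cells. Creb1, the gene of CREB, did so in 0 and 7 cells. Stat3, which carries the leptin signal, did so in 0 and 13. A count of 0 of 19 allows a share of up to 15.8%, and the shares of these 3 genes in other cells, 14.3%, 9.09% and 16.9%, are below or close to that limit.

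Most Trh-expressing cells carried a gene for the synthesis of GABA. Gad1 or Gad2, the glutamate decarboxylases, reached 10 CPM in 15 of 19 Trh-expressing cells (78.9%, 54.4 to 93.9%) and 51 of 77 other cells (66.2%, 54.6 to 76.6%). Slc17a6, the vesicular glutamate transporter of the hypothalamus, was present in 7 Trh-expressing cells (36.8%, 16.3 to 61.6%) and 28 other cells (36.4%, 25.7 to 48.1%). Gad2, with or without Gad1, was present in 14 Trh-expressing cells (73.7%, 48.8 to 90.9%) and 39 other cells (50.6%, 39.0 to 62.2%), and Gad1, with or without Gad2, in 11 (57.9%, 33.5 to 79.7%) and 42 (54.5%, 42.8 to 65.9%). Both kinds of gene were present in 6 Trh-expressing cells (31.6%, 12.6 to 56.6%) and 13 other cells (16.9%, 9.31 to 27.1%). Slc17a6 without Gad1 or Gad2 was found in 1 Trh-expressing cell (5.26%, 0.133 to 26%) and 15 other cells (19.5%, 11.3 to 30.1%). Gad1 or Gad2 without Slc17a6 was found in 9 and 38 cells, and neither in 3 and 11. All these intervals overlap between the groups.

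The transmitter genes of silent and not silent cells were then set apart. All 7 Trh-expressing cells that were classified and not silent carried Gad1 or Gad2, and 4 of them also carried Slc17a6, against 27 and 7 of 43 other such cells. Of 10 silent Trh-expressing cells 7 carried Gad1 or Gad2 and 1 carried both kinds, against 14 and 2 of 18 other silent cells. Gad2 had a relative difference of 0.57 over all cells, of 2.84 among cells that were not silent and of -2.02 among silent cells, and of -1.48 on summed counts. Gad1 was at -1.23 over all cells, with medians of 21.7 CPM in Trh-expressing and 54.2 CPM in other cells. It was present in 4 of the 11 cells with 100 CPM or more of Trh and in 7 of the 8 cells below that. Slc32a1, the vesicular GABA transporter, was present in 2 Trh-expressing and 11 other cells.

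Receptors for GABA lay mostly below the median gene. Of 10 eligible genes of 16, 2 lay above the median gene, the median was -0.93 and 1 was called lower (against 0.506% of all genes). This was Gabra2, a subunit of the GABA-A receptor, present in 4 of 19 Trh-expressing and 36 of 77 other cells, at -2.06. Gabrb1 was at -1.71 and Gabbr1 at -1.29, while Gabra5 was at 0.94. Among the cells without C1qb, 4 of them Trh-expressing, the median of the list was 0.47, against -0.69 among cells with C1qb. Of 24 glutamate receptor genes 8 were eligible, at a median of -0.57, with 3 above the median gene and Grm5 called lower (against 0.506% of all genes).

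Of the ion channels, Kcnk3 came close to a call, and it was eligible through the Trh-expressing cells alone. It encodes an acid-sensitive potassium leak channel that helps to set the resting potential (chr5:30588170-30625271, plus strand, mm10). It was present in 7 of 19 Trh-expressing cells (36.8%, 16.3 to 61.6%) and 3 of 77 other cells (3.90%, 0.811 to 11%), and its relative difference of 1.90 was just under the limit for a call. In those 7 cells it ran from 32.2 to 180 CPM. Of them 4 were silent, 2 were classified and not silent (cold-sensitive cell 5 and warm-sensitive cell 21) and 1 was of unknown class, against 2, 0 and 1 of the 3 other cells. All 7 carried Dlk1, and none of the 3 other cells did. Over all cells Dlk1 was present in 16 of 19 Trh-expressing and 10 of 77 other cells, so these counts are near its usual share. The 4 eligible genes of leak and HCN channels, of 17, had a median of 0.21. The eligible voltage-gated sodium channels (7 of 10 names searched), potassium channels (11 of 30) and calcium channels (3 of 15) had medians of -0.19, -0.36 and -0.04, with none called. None of the 19 thermosensing channel genes was eligible. Among these, Trpm2, a heat-sensitive channel of preoptic neurons, was present in 1 Trh-expressing and 7 other cells.

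Among the other neuropeptides and secreted factors 7 of 33 were eligible, 5 of these lay above the median gene, and the median was 0.22, with none called. This count depends in part on the filter, as Cbln1, Oxt, Sst and Adcyap1 were eligible through the Trh-expressing cells alone. Cbln1, a secreted organiser of synapses, came closest to a call at 1.97. It was present in 8 of 19 Trh-expressing cells (42.1%, 20.3 to 66.5%) and 9 of 77 other cells (11.7%, 5.49 to 21%), at 55.9 to 353 CPM in those 8 cells. It was present in 7 of the 11 cells with 100 CPM or more of Trh and in 1 of the 8 below that. Of the 8 cells 7 carried Dlk1, against 0 of the 9 other cells with Cbln1, beside 16 of 19 and 10 of 77 over all cells of each group.

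Oxt, the gene of oxytocin, was present in 6 Trh-expressing cells (31.6%, 12.6 to 56.6%) and 9 other cells (11.7%, 5.49 to 21%), with highest values of 394 and 126 CPM and a relative difference of 1.52. Its 6 cells were silent insensitive cells 1, 7 and 8, silent sensitive cells 2 and 3 and insensitive cell 18. Silent cells therefore made up 5 of the 6, against 2 of the 9 other cells with Oxt. All 6 carried Dlk1, against 3 of those 9, beside 16 of 19 and 10 of 77 over all cells of each group. Avp, the gene of vasopressin, was present in 8 and 33 cells, at 0.22, and in 4 of the 6 Trh-expressing cells with Oxt. Oxt and Avp are neighbouring genes of related sequence, and it is not stated how reads that match both were counted.

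**Figure D4:**
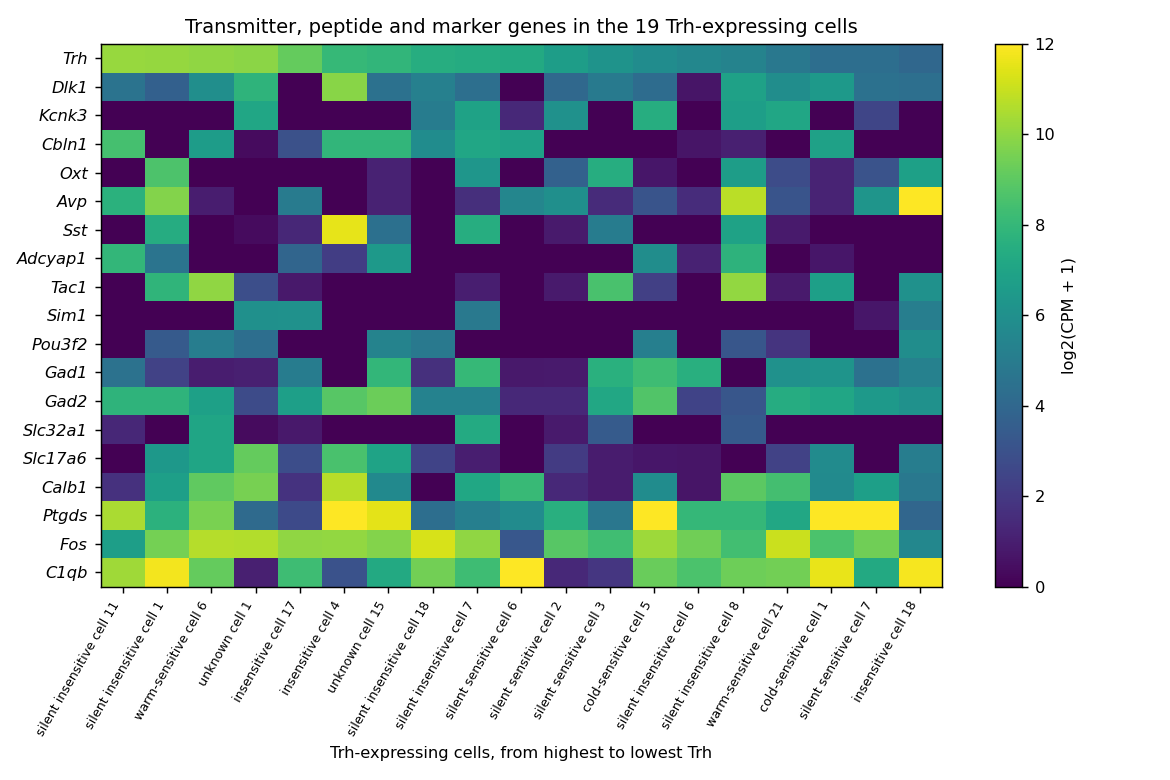
Level of 19 genes in each of the 19 Trh-expressing cells, as log2(CPM + 1) from 0 (dark) to 12 (yellow, values above shown as 12), with cells in columns from the highest Trh on the left to the lowest on the right. Dlk1 is present across the whole range of Trh, Cbln1 mostly on the left, and Gad1 more often on the right.

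Other peptides known from the preoptic area were present in part of the cells. Sst was present in 6 of 19 Trh-expressing and 17 of 77 other cells, Adcyap1, the gene of the peptide PACAP, in 6 and 18, and Tac1 in 6 and 20. Calb1, a calcium-binding protein, was at a relative difference of 0.18 and Ptgds, the enzyme of prostaglandin D synthesis, was present in 18 and 69 cells at -0.27. Gal was present in 0 and 4 cells, Nts in 0 and 6, and Pdyn in 0 and 8. The share of a gene found in so few other cells is under the 15.8% that a count of 0 of 19 allows. Crh was found in 1 Trh-expressing and 0 other cells.

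Of 45 transcription factors of the preoptic area 5 were eligible, 4 of these lay above the median gene, and the median was 0.39. Nr2f2, a nuclear receptor of interneurons, was the exception at -1.89, present in 4 of 19 Trh-expressing and 30 of 77 other cells. Six3, a homeobox gene of the forebrain, was present in 0 of 19 Trh-expressing cells and in 19 of 77 other cells. Isl1 was present in 1 and 16 cells. In the other direction, Ebf1 was present in 3 Trh-expressing cells and 0 of 77 other cells, which allows a share of up to 3.90% there. These were unknown cell 1, silent insensitive cell 18 and insensitive cell 18, at 151, 38.7 and 34.5 CPM. Zfhx4 was at 0.75 and Zfhx3 at 0.55, with 6 and 11 cells and 9 and 24 cells. Zfhx4 was eligible through the Trh-expressing cells alone and Nr2f2 through the other cells alone. Six3 and Isl1 fell short of the limit in both groups. No monoamine or cholinergic gene was eligible, and of 31 hormone receptors 2 were, Prlr at 0.01 and Adcyap1r1 at -0.62.

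Immediate early genes, whose RNA is quickly raised by activity or by handling, were present in both groups. Fos reached 10 CPM in 18 of 19 Trh-expressing and 67 of 77 other cells, with medians of 724 and 860 CPM. Of 14 eligible genes of 20, 4 lay above the median gene and the median was -0.67. Dusp1, a phosphatase of MAP kinases, was at 1.60, present in 14 and 35 cells with medians of 124 and 3.40 CPM, and Arc, a regulator of synapses, was at -1.83, with 3 and 25 cells.

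**Figure D5:**
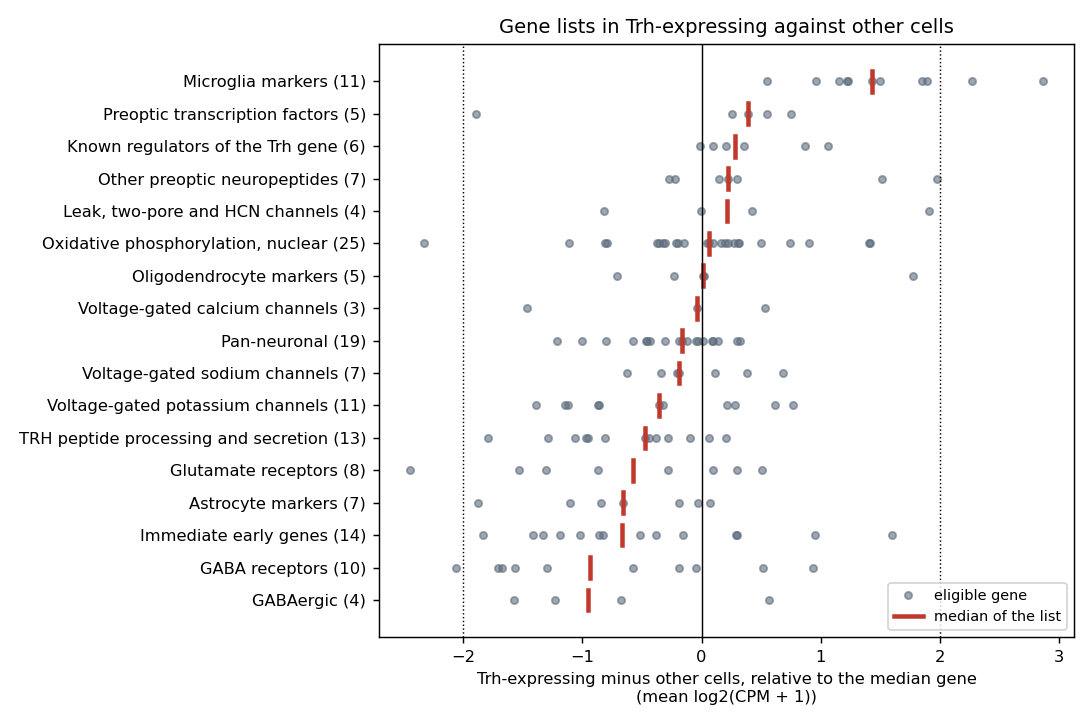
Difference between Trh-expressing and other cells in mean log2(CPM + 1), relative to the median gene, for the eligible genes of 17 lists (grey points, number of genes in brackets) with each list's median (red bar), and dotted lines at the size called. Microglia markers have the highest median, at 1.43, and genes of GABA signalling and GABA receptors the lowest, at -0.95 and -0.93. The GABA signalling list had 4 eligible genes, and its median moved with the cells taken. It was -2.02 in silent cells and -0.21 in classified cells that were not silent. At a Trh limit of 50 CPM it was -0.17, and with C1qb below 10 CPM it was 0.29.

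More genes were called when silent and not silent cells were taken apart, where fewer cells stood behind each mean. Among silent cells (10 Trh-expressing and 18 other) 76 genes were higher and 199 lower by the same rule, of 3720 eligible genes. Among classified cells that were not silent (7 and 43) 191 were higher and 144 lower, of 3570. Over all cells the counts were 15 and 20 of 3952. Of the 15 genes called higher over all cells, 9 were called again in silent and 11 in not silent cells, and of the 20 called lower 12 and 8. Within title letters 18 genes of 3952 were higher and 24 lower, with 12 and 15 of them shared with the calls over all cells. Shared calls, higher and lower, were 3 and 10 on summed counts and 1 and 0 with a pseudocount of 10 CPM. At Trh limits of 1 and 50 CPM they were 1 and 1, and 5 and 14. For Trh of 100 CPM or more they were 7 and 17, and with C1qb below 10 CPM 6 and 8. With totals without Rn45s and after thinning they were 15 and 20.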

How the data were processed

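Per the labels, single neurons were recorded and sequenced one by one. The authors deposited raw counts (whole numbers, 1 column per cell) and a second table of normalized signal, in which each cell's counts are multiplied by 1 constant. FastQC, STAR, edgeR and mm10 are named in the submitters' processing notes, with no versions. The annotation, the counting step, the use of strand and the origin of the constants were not stated in these sources. The table holds 24054 genes, 7772 of them without a count, and no 2 cells held identical values. The members and gene lists were chosen with earlier results of these data known.

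From the counts, CPM used each cell's total, Rn45s included, and a pseudocount of 1 CPM. To be named, an eligible gene had to have a share and a log2 difference of 1 sign, to keep that sign among silent and among not silent cells, and to keep 2/3 of the log2 difference when any 1 cell is left out; the 12 highest and 12 lowest were taken, without predicted, ribosomal protein and clone names. Members of 25 gene lists could also be named; some results are not reported here. The steps were run on simulated data with planted changes, in which each gene was drawn on its own in each cell. The simulated data held no shared RNA of other cell types and no animals, so they do not bear on either. No paired design exists. Coordinates are from GENCODE M21 on mm10 and the promoter from RefSeq. Library sizes for alternatives came from edgeR 4.0.16 and DESeq2 1.42.0 in R 4.3.3; all else used Python 3.11.15 with scipy 1.17.1, pandas 2.3.3, numpy 2.4.6 and matplotlib 3.10.9.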

Additional observations from a re-analysis of the deposited data

Results flagged for a closer look

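In 17 groups of 4 to 10 cells, each for 1 gene, 8 had 1 cell far from the others of its group. The nominal rate by chance is about 1 in 20. CPM values of single cells are skewed, with many cells at the floor and a few far above it, so that rate cannot be relied on here. The 8 are listed as descriptions, and nothing is concluded from their number. Among Trh-expressing silent sensitive cells (n = 4), C1qb was 5263 CPM in silent sensitive cell 6, with the next cell at 154 CPM, and Gad1 was 197 CPM in silent sensitive cell 3, with the next at 21 CPM. Among Trh-expressing silent insensitive cells (n = 6), C1qb was 3596 CPM in silent insensitive cell 1 (next 1251 CPM), Slc17a6 was 83.7 CPM in the same cell (next 4.30 CPM), and Dlk1 was 115 CPM in silent insensitive cell 8 (next 36.5 CPM). Among Trh-expressing cells that were classified and not silent (n = 7), insensitive cell 4 had 932 CPM of Dlk1 (next 90.1 CPM) and 377 CPM of Slc17a6 (next 131 CPM), and cold-sensitive cell 5 had 307 CPM of Gad1 (next 72.2 CPM).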

How the results depend on the processing

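The choice of cells was the same at 5 counts as at 10 CPM of Trh, but 19 cells give wide intervals and no animals are named. No paired analysis was possible because no label pairs cells and no result comes from a test. The number of Trh-expressing cells was 32 at a limit of 1 CPM, and class shares stayed inside their intervals under each of the 4 other limits and totals tried. Genes called higher and lower, main values 15 and 20, were 4 and 2 at a Trh limit of 1 CPM, 23 and 53 at 50 CPM, 98 and 157 with a pseudocount of 0.1 CPM, 1 and 0 with 10 CPM, 35 and 58 with totals without Rn45s, 61 and 79 after thinning, 54 and 1 without a limit on low genes, 10 and 13 for genes eligible at 50% of cells, 29 and 25 in cells with a temperature class, 76 and 199 in silent cells, 191 and 144 in classified cells that were not silent, 35 and 55 without cells over 75% Rn45s, 85 and 121 on summed counts, and 52 and 1 without counting from the median gene. In settings added after the data were seen they were 30 and 49 with C1qb at 10 CPM or more, 340 and 254 with C1qb below it, and 35 and 106 for Trh of 100 CPM or more. Eligible genes numbered 3952 in the main setting, as for both pseudocounts and summed counts. They were 4053 and 3820 at Trh limits of 1 and 50 CPM, 4469 without Rn45s and 5303 after thinning. They were 16281 without a limit on low genes and 1191 at 50% of cells. By cells they were 3480 with a class, 3720 silent, 3570 not silent and 4752 without cells over 75% Rn45s. With C1qb they were 4424, below it 2769, and for Trh of 100 CPM or more 4205. The median difference, 0.37, was 0.57 and 0.15 with pseudocounts of 0.1 and 10 CPM, -0.010 without a limit on low genes, 0.76 in silent cells, 0.12 in not silent cells, 0.24 within title letters, -0.10 on summed counts and 0.054 with C1qb below 10 CPM. With C1qb below 10 CPM, the values of C1qc, Arhgdib and St3gal6 changed sign, to -0.63, -0.74 and -0.46. There 0 of 4 Trh-expressing cells reached 10 CPM for each of these genes, so the sign gives no direction. Leaving out each cell gave 14 to 24 genes higher, 15 to 33 lower and a median of 0.29 to 0.48: 24 higher without unknown cell 1 or unknown cell 15, 24 higher and 33 lower without silent sensitive cell 3, and 31 lower without silent insensitive cell 7. TMM and DESeq2 sizes and the deposited normalized values kept both counts within 1.5 times. The cause of these changes was not tested.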
